A study of Mus musculus with 8 samples.

Results

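The genes described here are 31 genes of glycolysis and of the transcriptional response to low oxygen, measured in ovarian tumours of mice with and without Nedd9. They were chosen by gene name. Of these, 20 act in the steps from glucose uptake to lactate export or, for Pdk1, on the fate of pyruvate. The other 11 are target genes of the hypoxia-inducible factors (HIF). All 31 were found among the 25610 genes tested, and each was well above background on all 8 arrays, so none was lost to the filter on dim probes and none rests on a bound. The tumours arose spontaneously in female mice of the strain labelled C57BL/6JTgMISIIR-TAg, which were given no drug. In that strain the promoter of Amhr2, the receptor of anti-Muellerian hormone, drives the SV40 T antigen, so every tumour of both genotypes carries the transgene. The genotypes were Nedd9-WT (4 tumours) and Nedd9-null (4 tumours), each tumour from 1 mouse and hybridised to 1 single-colour array. NEDD9 is a scaffold protein of focal adhesion and SRC signalling. Ages are not given in the labels, and the labels differ on whether tumours were taken below or at the size limit.

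Glycolysis splits glucose into pyruvate in the cytoplasm, and lactate dehydrogenase regenerates the NAD+ that the pathway consumes by turning pyruvate into lactate. HIF is a dimer of an oxygen-labile alpha subunit and ARNT. Prolyl hydroxylases mark the alpha subunit for destruction through VHL when oxygen is present, and in hypoxia the dimer binds hypoxia response elements whose core reads ACGTG or GCGTG. Many glycolytic genes are HIF targets themselves, and solid tumours commonly hold poorly perfused areas in which these genes are induced.

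The letters before the transcription starts are shown for genes whose levels the results turn on, because the HIF core can be read directly in them. RefSeq promoters (build GRCm38.p6) were matched by symbol for 29 of the 31 genes, with 43 starts in all. No promoter was found for Slc2a3 or Ndrg1, so neither could be shown. Each line gives the 250 bases before a start, 5′ to 3′ in the direction of transcription, and capitals mark ACGTG or GCGTG on either strand (CACGT or CACGC when the other strand is read). The intervals are chr6:82774455-82774704 (minus strand) for Hk2, chr11:78322823-78323072 (plus strand) for the first of the 2 Aldoc starts, chr6:142507958-142508207 (minus strand) for Ldhb, chr4:43506776-43507025 (plus strand) for Car9, chr9:108991652-108991901 (plus strand) for Pfkfb4 and chr7:46845554-46845803 (plus strand) for the first of the 2 Ldha starts. Ldha is shown as a glycolytic gene whose difference between genotypes was close to 0.
Hk2: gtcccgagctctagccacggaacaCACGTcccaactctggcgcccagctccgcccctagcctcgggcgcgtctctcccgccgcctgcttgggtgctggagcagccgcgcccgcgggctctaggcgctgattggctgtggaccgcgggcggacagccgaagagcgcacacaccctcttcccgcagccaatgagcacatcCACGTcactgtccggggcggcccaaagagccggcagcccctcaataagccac
Aldoc: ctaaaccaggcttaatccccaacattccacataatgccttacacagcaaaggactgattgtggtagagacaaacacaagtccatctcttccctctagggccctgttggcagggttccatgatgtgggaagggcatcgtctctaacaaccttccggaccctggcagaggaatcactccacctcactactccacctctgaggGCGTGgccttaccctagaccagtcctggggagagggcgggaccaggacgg
Ldhb: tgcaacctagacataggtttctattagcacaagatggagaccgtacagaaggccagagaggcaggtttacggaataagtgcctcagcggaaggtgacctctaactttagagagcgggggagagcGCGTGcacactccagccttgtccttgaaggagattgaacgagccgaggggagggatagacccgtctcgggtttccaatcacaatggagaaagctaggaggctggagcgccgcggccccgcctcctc
Car9: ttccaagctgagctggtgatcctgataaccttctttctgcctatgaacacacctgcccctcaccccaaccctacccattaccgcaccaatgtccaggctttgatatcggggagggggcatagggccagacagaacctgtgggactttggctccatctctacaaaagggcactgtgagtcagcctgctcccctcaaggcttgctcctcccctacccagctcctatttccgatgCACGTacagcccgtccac
Pfkfb4: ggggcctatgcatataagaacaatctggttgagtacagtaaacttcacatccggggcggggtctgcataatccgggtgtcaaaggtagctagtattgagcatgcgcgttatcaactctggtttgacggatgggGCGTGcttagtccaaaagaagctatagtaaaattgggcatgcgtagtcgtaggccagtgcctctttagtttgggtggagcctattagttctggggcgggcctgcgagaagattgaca
Ldha: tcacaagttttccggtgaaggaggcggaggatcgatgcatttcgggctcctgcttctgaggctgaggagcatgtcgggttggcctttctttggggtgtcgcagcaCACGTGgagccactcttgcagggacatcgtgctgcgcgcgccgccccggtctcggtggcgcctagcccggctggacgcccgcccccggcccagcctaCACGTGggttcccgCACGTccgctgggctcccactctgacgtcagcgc
The Hk2 window holds 2 matches and the Ldha window 5, where the palindrome CACGTG is read once on each strand, and the other windows hold 1 each. Of the 43 windows, 34 (79.1%) held at least 1 match, against 38.6% of 32851 promoter windows of the same length. ACGTG was present in 41.9% of these genes' windows and 16.6% of all windows, and GCGTG in 55.8% and 28.2%. The median GC content was 59.6% in these genes' windows and 52.4% in all windows, and its part in the motif shares was not tested. The windows of Gpi1, Tpi1 and Eno2 held no match in these letters. The genes were chosen as HIF targets or glycolytic genes, so their higher motif shares are no independent result. Some windows of the same gene overlap, as for Eno1, Aldoa and Pfkm, and count the same match more than once. A match is a stretch of letters and not a measured binding site.

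Levels are log2 processed signals set against the 75th percentile of each array's probes, so a probe at that percentile has the level 0 and 1 unit is a doubling. They compare tumours for 1 probe and not one gene with another. A positive difference is a higher level in Nedd9-null tumours, SE is its standard error from limma, and p-values were adjusted over all 25610 genes by the Benjamini-Hochberg method with a threshold of 0.05. Nedd9 itself measured −2.01, −3.50, −3.39 and −4.03 in Nedd9-null replicates 1 to 4 and 1.15, 0.84, 1.30 and 1.85 in the Nedd9-WT tumours. The difference was −4.51 (SE 0.438), a 22.9-fold lower level, with an adjusted p of 0.0281 and an exact 2-sided permutation p of 0.0286, the smallest that 4 against 4 tumours allow. Nedd9-null replicate 1 stood apart: its array correlated at 0.886 to 0.920 with the other Nedd9-null arrays and at 0.938 to 0.973 with the Nedd9-WT arrays. That array also had the lowest 75th percentile signal (2418), the largest share of probes well above background (84.6%) and the most outlier spots (292). The part of array quality in its standing apart was not tested. The difference of each gene and the median of each list are therefore given both over all 8 tumours and over the 7 tumours without Nedd9-null replicate 1. Over those 7 tumours the Nedd9 difference was −4.92 (SE 0.285, adjusted p = 0.000298). Nedd9-null replicate 1 was singled out by its levels in these same data, and no adjusted p-value without it allows for that choice. The arrays of the 2 genotypes lay on separate slides, so slide and genotype cannot be told apart.

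None of the 31 genes passed the adjusted threshold with all 8 tumours, and the smallest adjusted p among them was 0.0914, for Hk2. Over all genes, 17 of 25610 (0.0664%) passed, 15 (0.0586%) higher and 2 (0.00781%) lower in Nedd9-null tumours. At an unadjusted p under 0.05, 2 of the 31 were higher (Aldoc and Pfkfb4), or 6.45%, against 13.1% of all genes. By the same measure 5 were lower (Hk2, Pgam1, Ldhb, Slc16a3 and P4ha1), or 16.1%, against 10.8% of all genes. In 3 genes (Hk2, Pgam1 and Kdm3a), or 9.68%, every Nedd9-null tumour lay below every Nedd9-WT tumour, against 5.58% of all genes. No gene had the reverse separation, which 7.17% of all genes showed. These shares are near those of all genes, so they are no result about glycolysis or HIF targets as a group. The median difference was −0.11 over the 20 glycolytic genes (7 positive, 13 negative) and −0.25 over the 11 HIF targets (4 positive, 7 negative), beside 0.028 over all genes.

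Nedd9-null replicate 1 was left out because its array resembled the Nedd9-WT arrays in these same data. Leaving out such a tumour favours wider differences and a smaller spread within Nedd9-null tumours. The adjusted p-values without it do not allow for that choice, so they describe the remaining tumours and are no independent test of genotype. Without Nedd9-null replicate 1, 6 of the 31 genes passed the adjusted threshold. Slc2a3, Aldoc, Car9 and Pfkfb4 were higher (12.9% of the 31, against 10.3% of all genes), and Hk2 and Ldhb were lower (6.45%, against 8.36% of all genes). These shares too are close to those of all genes. The medians became 0.041 for the glycolytic genes and 0.063 for the HIF targets, beside −0.073 for all genes. The plot of differences shows both fits for each gene.

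**Figure D1:**
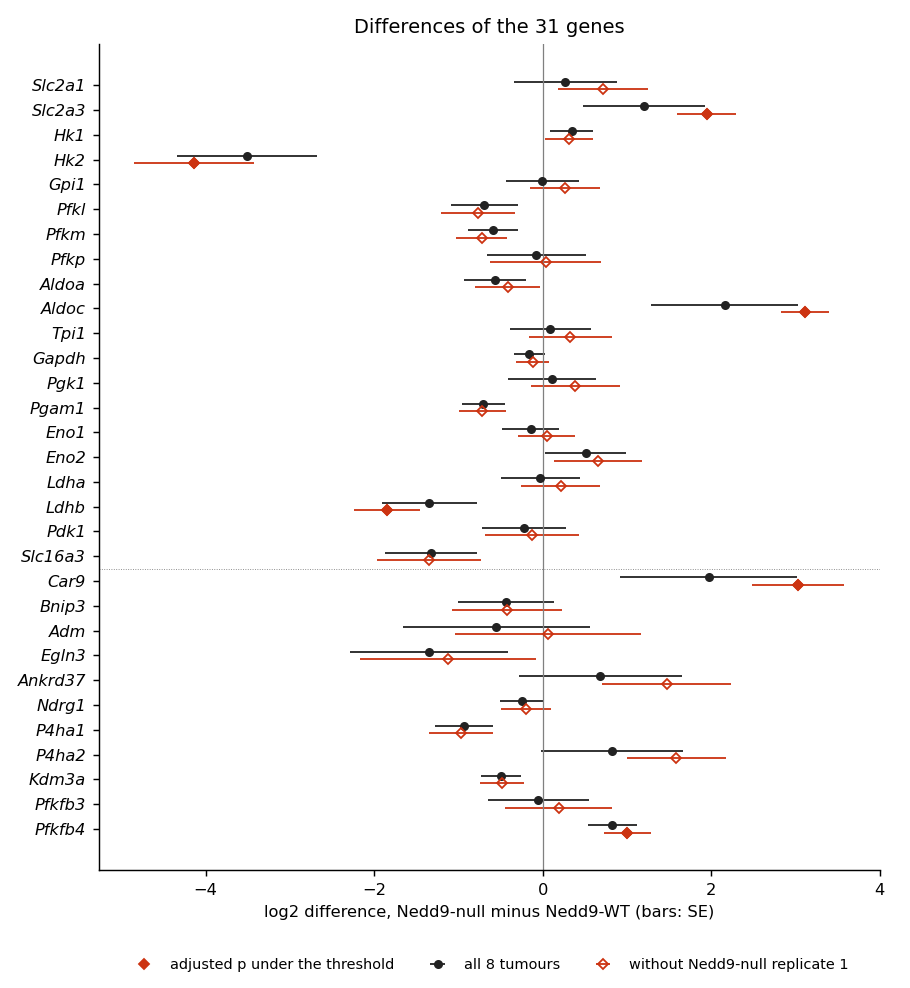
Log2 difference between genotypes (Nedd9-null minus Nedd9-WT, horizontal axis) for each of the 31 genes, glycolytic genes above the dotted line and HIF targets below it. Black points use all 8 tumours and red diamonds leave out Nedd9-null replicate 1, bars are the SE of the fit, and filled diamonds mark the 6 genes whose adjusted p was under 0.05; Hk2 lies farthest to the left and Aldoc and Car9 farthest to the right.

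Glucose enters cells through facilitative transporters. Slc2a1 (GLUT1), the widely expressed carrier, measured 1.20, 3.62, 2.78 and 2.60 in Nedd9-null replicates 1 to 4 and 1.61, 1.34, 3.09 and 3.08 in the Nedd9-WT tumours. The genotypes overlapped, with low and high tumours in both, and the difference was 0.27 (SE 0.613, adjusted p = 0.827), or 0.72 (SE 0.533, adjusted p = 0.404) over 7 tumours. Slc2a3 (GLUT3), a high-affinity carrier known from neurons, measured −1.83, 0.74, 1.12 and 1.57 in the Nedd9-null tumours and −1.23, −1.29, −0.59 and −0.10 in the Nedd9-WT tumours. Nedd9-null replicate 1 was the lowest of the 8 tumours, and the other 3 Nedd9-null tumours were above every Nedd9-WT tumour. Its difference was 1.20 (SE 0.721, adjusted p = 0.347) with all tumours and 1.95 (SE 0.353, 3.85-fold, adjusted p = 0.0101) without that replicate.

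Hexokinases phosphorylate glucose and so trap it in the cell. Hk2, the inducible isoform that many tumours use, measured 0.22, −0.94, −3.08 and −2.89 in Nedd9-null replicates 1 to 4 and 0.87, 2.48, 2.91 and 1.09 in the Nedd9-WT tumours. Every Nedd9-null tumour was below every Nedd9-WT tumour, with replicates 3 and 4 lowest. The difference was −3.51 (SE 0.832, 11.4-fold lower, adjusted p = 0.0914), and −4.14 (SE 0.709, 17.6-fold lower, adjusted p = 0.00793) without Nedd9-null replicate 1. Hk1, the broadly expressed isoform, measured 3.16, 3.35, 3.12 and 2.71 in the Nedd9-null and 2.47, 2.98, 2.28 and 3.22 in the Nedd9-WT tumours. Its genotypes overlapped (difference 0.34, SE 0.256, adjusted p = 0.457, and 0.32 over 7 tumours).

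The next steps isomerise the sugar and add the phosphate that commits it to glycolysis. Gpi1, glucose-6-phosphate isomerase, had a difference of −0.0023 (SE 0.437) and ran from 4.11 to 5.85 over the Nedd9-WT tumours alone; over 7 tumours the difference was 0.27 (SE 0.417). The phosphofructokinase genes were Pfkl (liver type), Pfkm (muscle type) and Pfkp (platelet type), whose differences were −0.69 (SE 0.395), −0.59 (SE 0.296) and −0.075 (SE 0.585). Their adjusted p-values were 0.325, 0.270 and 0.955, and the genotypes overlapped for all 3. Over 7 tumours these differences were −0.77, −0.72 and 0.036, with adjusted p-values of 0.275, 0.150 and 0.979. Of the bifunctional enzymes that set the level of fructose 2,6-bisphosphate, the activator of phosphofructokinase, Pfkfb3 had a difference of −0.050 (SE 0.598, adjusted p = 0.971), or 0.19 (SE 0.636, adjusted p = 0.873) over 7 tumours. Pfkfb4 measured −1.86, −1.08, −1.31 and −1.04 in the Nedd9-null tumours and −2.03, −2.74, −2.23 and −1.60 in the Nedd9-WT tumours. The Nedd9-null values lay at the top of the range, with replicate 1 inside the Nedd9-WT range. The Pfkfb4 difference was 0.83 (SE 0.293, adjusted p = 0.149) with all tumours and 1.01 (SE 0.276, 2.01-fold, adjusted p = 0.0459) without that replicate.

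Aldolase cleaves fructose 1,6-bisphosphate into 2 trioses. Aldoc, the isoform known from brain, measured 1.32, 5.005, 5.10 and 5.36 in Nedd9-null replicates 1 to 4 and 1.57, 2.04, 1.82 and 2.72 in the Nedd9-WT tumours. Nedd9-null replicate 1 was the lowest tumour of all, and the other 3 lay close together and above every Nedd9-WT tumour. The difference was 2.16 (SE 0.876, 4.46-fold, adjusted p = 0.188), and 3.12 (SE 0.286, 8.68-fold, adjusted p = 0.000735) without that replicate. Aldoa, the main muscle and tumour isoform, measured 5.67, 6.64, 6.18 and 5.99 in the Nedd9-null and 5.87, 6.43, 7.43 and 7.02 in the Nedd9-WT tumours. Its difference was −0.57 (SE 0.367, adjusted p = 0.388), or −0.42 over 7 tumours, and the genotypes overlapped. Tpi1, triose phosphate isomerase, had a difference of 0.090 (SE 0.481, adjusted p = 0.932), or 0.33 (SE 0.491, adjusted p = 0.700) over 7 tumours.

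The lower part of the pathway yields ATP, and each of its 5 genes had a difference smaller than 1 log2 unit. Gapdh, glyceraldehyde-3-phosphate dehydrogenase, had a difference of −0.16 (SE 0.185, adjusted p = 0.646) on its brightest probe. The 7 Gapdh probes gave differences from −0.46 to −0.16, and the gene has many near-identical pseudogene copies whose RNA these probes may also bind. Pgk1, phosphoglycerate kinase, had a difference of 0.11 (SE 0.525, adjusted p = 0.921). Pgam1, phosphoglycerate mutase, measured 4.60, 4.84, 4.47 and 4.41 in the Nedd9-null tumours and 4.87, 5.004, 5.92 and 5.36 in the Nedd9-WT tumours. No Pgam1 value overlapped between genotypes, and the difference of −0.71 (SE 0.254, adjusted p = 0.153) did not pass. Eno1, the ubiquitous enolase, had a difference of −0.14 (SE 0.340, adjusted p = 0.837). Eno2, the neuronal enolase, measured −2.89, −2.03, −2.68 and −2.19 in the Nedd9-null and −3.51, −3.51, −3.32 and −1.50 in the Nedd9-WT tumours, with the last Nedd9-WT tumour highest of all (difference 0.51, SE 0.479, adjusted p = 0.560). Over 7 tumours the differences of these 5 genes were −0.12 for Gapdh, 0.39 for Pgk1, −0.71 for Pgam1, 0.046 for Eno1 and 0.66 for Eno2, and the smallest adjusted p was that of Pgam1, at 0.132.

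At the end of the pathway, lactate dehydrogenase A favours lactate formation and lactate dehydrogenase B is known from oxidative tissues. Ldhb measured 6.02, 4.29, 3.85 and 3.88 in Nedd9-null replicates 1 to 4 and 5.42, 5.53, 6.92 and 5.55 in the Nedd9-WT tumours. Nedd9-null replicate 1 lay within the Nedd9-WT range, and the other 3 were below all Nedd9-WT tumours. The Ldhb difference was −1.35 (SE 0.561, adjusted p = 0.196), and −1.85 (SE 0.391, 3.61-fold lower, adjusted p = 0.0185) without that replicate. Ldha measured 4.89, 6.26, 5.83 and 5.49 in the Nedd9-null and 4.68, 5.17, 6.37 and 6.37 in the Nedd9-WT tumours, and its difference was −0.030 (SE 0.468, adjusted p = 0.977), or 0.21 (SE 0.473, adjusted p = 0.803) over 7 tumours. Pdk1, a kinase that shuts pyruvate out of the mitochondrial dehydrogenase, had a difference of −0.22 (SE 0.499, adjusted p = 0.824), or −0.13 over 7 tumours. Slc16a3 (MCT4), the lactate exporter, measured 1.55, 2.56, 1.16 and 0.65 in the Nedd9-null and 1.59, 2.67, 3.37 and 3.60 in the Nedd9-WT tumours. The lowest Nedd9-WT tumour, replicate 1, lay within the Nedd9-null range of Slc16a3 and the other 3 lay above it (difference −1.32, SE 0.545, adjusted p = 0.193, and −1.35, adjusted p = 0.183, without Nedd9-null replicate 1).

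**Figure D2:**
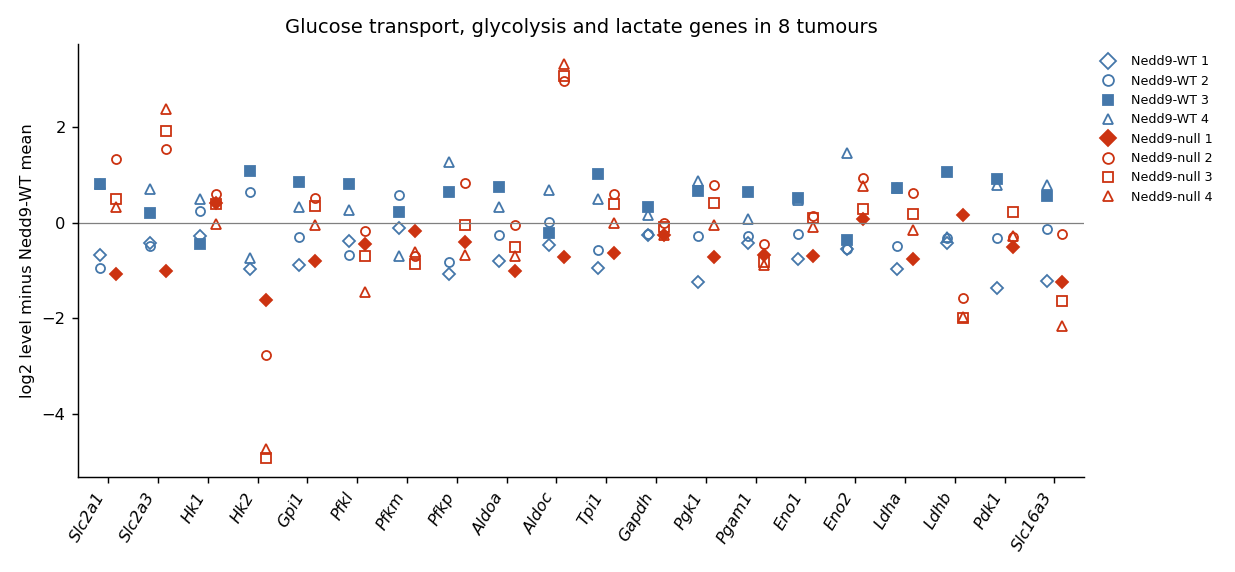
Level of each of the 20 glycolytic genes in each tumour, as the log2 difference from the mean of the 4 Nedd9-WT tumours (vertical axis); Nedd9-WT tumours are blue, Nedd9-null tumours red, and symbols give the replicate. Nedd9-WT replicate 3 (filled square) is the highest tumour for 10 of the genes, Nedd9-null replicate 1 (filled diamond) is highest for none, and the other Nedd9-null tumours lie far from the Nedd9-WT tumours for Hk2, Aldoc and Ldhb.

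Among the HIF targets, Car9 had the largest positive difference. Car9 encodes carbonic anhydrase 9, a cell surface enzyme that regulates extracellular pH and is used as a marker of hypoxia. It measured −2.54, 2.86, 1.33 and 0.96 in Nedd9-null replicates 1 to 4 and −1.87, −0.87, −0.62 and −1.91 in the Nedd9-WT tumours. Nedd9-null replicate 1 was the lowest of the 8 tumours and the other 3 were the highest. The Car9 difference was 1.97 (SE 1.05, 3.92-fold, adjusted p = 0.293) with all tumours and 3.03 (SE 0.546, 8.19-fold, adjusted p = 0.00972) without that replicate.

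Adm (adrenomedullin, a vasodilator peptide) measured −2.18, 1.57, −0.71 and −0.06 in the Nedd9-null and −1.63, −1.32, 2.33 and 1.44 in the Nedd9-WT tumours. Egln3, a prolyl hydroxylase that acts on HIF alpha, measured −1.55, 0.57, −1.54 and −0.97 in the Nedd9-null and −1.89, 0.02, 2.53 and 1.22 in the Nedd9-WT tumours. Ankrd37, an ankyrin repeat protein induced by hypoxia, measured −2.20, 1.19, 0.66 and 1.05 in the Nedd9-null and −1.97, −1.50, 0.18 and 1.27 in the Nedd9-WT tumours. In these 3 genes the tumours of 1 genotype differed by far more than the genotypes did, with Nedd9-WT replicates 3 and 4 high and replicate 1 low. The differences were −0.55 (SE 1.11) for Adm, −1.35 (SE 0.938) for Egln3 and 0.68 (SE 0.967) for Ankrd37, with adjusted p-values of 0.802, 0.422 and 0.709. Over 7 tumours the Adm difference turned to 0.063 (SE 1.11), Egln3 gave −1.12 (SE 1.05) and Ankrd37 gave 1.47 (SE 0.768, 2.78-fold), with adjusted p-values of 0.978, 0.519 and 0.235. The SD among the Nedd9-WT tumours was 1.98 for Adm, 1.88 for Egln3 and 1.501 for Ankrd37, at the 98.3, 97.8 and 95.8 percentiles of that SD over all genes.

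Pfkfb3 and Pfkfb4 are given above, and the remaining HIF targets did not pass the threshold with all 8 tumours or with 7. Bnip3, a mitophagy receptor, had a difference of −0.44 (SE 0.571, adjusted p = 0.685), or −0.42 over 7 tumours. Ndrg1, a stress-induced growth suppressor, had a difference of −0.25 (SE 0.265, adjusted p = 0.615), or −0.20 over 7 tumours. The collagen prolyl hydroxylase subunits pointed apart: P4ha1 had a difference of −0.93 (SE 0.342, adjusted p = 0.158) and P4ha2 of 0.83 (SE 0.844, 1.77-fold, adjusted p = 0.593). Over 7 tumours P4ha1 gave −0.97 (SE 0.384, adjusted p = 0.131) and P4ha2 1.59 (SE 0.591, 3.00-fold, adjusted p = 0.112). Kdm3a, a histone H3 lysine 9 demethylase, measured 1.53, 1.63, 1.52 and 1.61 in the Nedd9-null and 1.64, 1.71, 2.50 and 2.42 in the Nedd9-WT tumours. The Kdm3a genotypes did not overlap, the Nedd9-null values lay close together, and the difference was −0.50 (SE 0.235, adjusted p = 0.243), or −0.48 over 7 tumours.

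**Figure D3:**
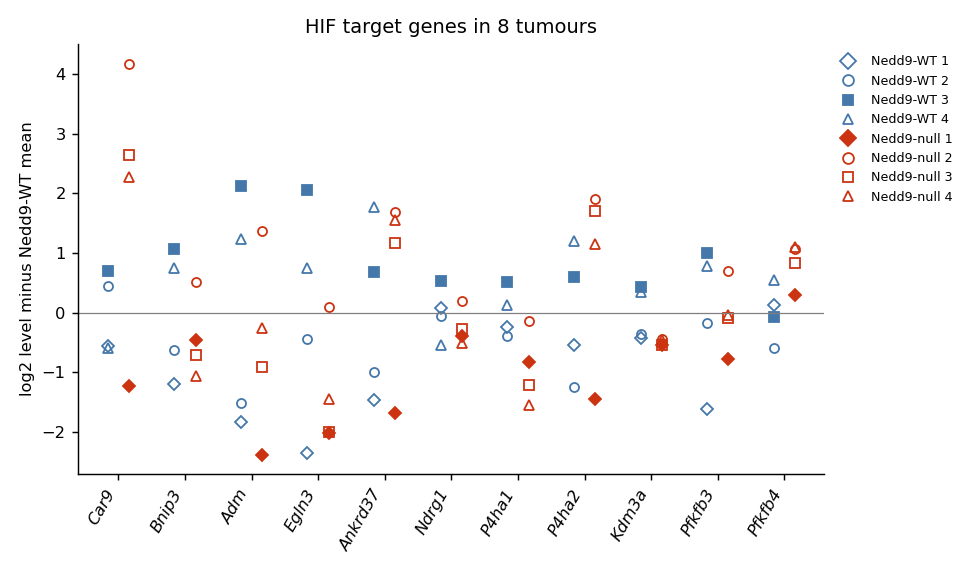
Level of each of the 11 HIF targets in each tumour, as the log2 difference from the mean of the 4 Nedd9-WT tumours (vertical axis), with colours for genotype and symbols for replicate as keyed. Adm, Egln3 and Ankrd37 spread widely within the Nedd9-WT tumours, and for Car9 the Nedd9-null tumours other than replicate 1 (filled diamond) lie above all others.

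The variation among tumours of 1 genotype was larger for these genes than over all genes. The median SD over the Nedd9-WT tumours was 0.756 for the 31 genes (0.734 for the glycolytic genes and 1.08 for the HIF targets), against 0.384 over all genes. Nedd9-WT replicate 3 was the highest of the 8 tumours in 17 of the 31 genes (54.8%), where it was highest in 18.5% of all genes. Nedd9-WT replicate 1 was the lowest in 11 (35.5%, against 8.63% of all genes) and Nedd9-null replicate 1 the lowest in 9 (29.0%, against 7.13%). Nedd9-null replicate 1 was highest in none, although it was highest in 25.9% of all genes. Over the 7 tumours without it, a count added after the values were seen, Nedd9-WT replicate 3 was highest in 17 (54.8%, against 20.6% of all genes) and Nedd9-WT replicate 1 lowest in 15 (48.4%, against 10.2%). These shares describe the tumours and were not tested, since no label distinguishes them within a genotype. The shares of all genes include dimmer genes and were not matched in brightness to the 31.

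The other genes of the pathway were taken from lists chosen, as were the 31 genes, with earlier results of these data known. None of their members passed with all 8 tumours. Over 34 other glycolytic and pyruvate genes the median difference was 0.14 (19 positive, 15 negative), or 0.13 over 7 tumours. Without Nedd9-null replicate 1, 4 were higher (11.8%, against 10.3% of all genes) and 2 lower (5.88%, against 8.36%), which is near the share of all genes. Fbp1, a gluconeogenic fructose bisphosphatase, had a difference of 2.18 (SE 0.557, adjusted p = 0.0963). Pdha1, a subunit of pyruvate dehydrogenase, had a difference of 0.97 (SE 0.265, adjusted p = 0.105). Tigar, whose product lowers fructose 2,6-bisphosphate, had a difference of −1.05 (SE 0.332, adjusted p = 0.126), or −1.19 (adjusted p = 0.0536) over 7 tumours. For Fbp1 and Pdha1 every Nedd9-null tumour lay above every Nedd9-WT tumour, and for Tigar every one lay below. Those higher over 7 tumours included the hexokinase gene Hkdc1 (4.03), Pdha1 (1.17) and Fbp1 (2.64), and those lower included Pdk4 (−0.95), a kinase that inhibits pyruvate dehydrogenase. Of the 8 pentose phosphate genes 4 differences were positive, none passed in either fit, and the smallest p belonged to Pgls, 6-phosphogluconolactonase, at 0.55 (SE 0.176, adjusted p = 0.126), or 0.62 (adjusted p = 0.0559) over 7 tumours. The median of the pentose phosphate genes was −0.072 over 8 tumours and −0.12 over 7.

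Of 12 genes that form or control HIF, 8 had negative differences, with a median of −0.53, or −0.55 over 7 tumours. Arnt, the stable subunit of HIF, measured 0.63, 0.78, 0.82 and 0.82 in the Nedd9-null and 1.30, 1.25, 1.59 and 1.28 in the Nedd9-WT tumours. No Arnt value overlapped between genotypes, and the difference was −0.59 (SE 0.147, adjusted p = 0.0946). Hif1an, the asparaginyl hydroxylase that limits HIF activity, had a difference of −0.68 (SE 0.211, adjusted p = 0.122), and Vhl of −0.51 (SE 0.172, adjusted p = 0.138), or −0.56 (adjusted p = 0.0767) over 7 tumours. Hif1a had a difference of −0.35 (SE 0.195, adjusted p = 0.316), or −0.48 (adjusted p = 0.0952) over 7 tumours. Without Nedd9-null replicate 1, Arnt (−0.55), Hif1an (−0.83) and Cited2 (−2.10), a competitor for the coactivators of HIF, were the 3 of 12 that fell (25.0%, against 8.36% of all genes), and none rose (against 10.3%).

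Of 35 further HIF targets tested (Epo was not well above background), 22 had negative differences, with a median of −0.34, or −0.24 over 7 tumours. Plod2 and Plod1, lysyl hydroxylases of collagen, had differences of −1.15 (SE 0.331, adjusted p = 0.109) and −1.14 (SE 0.362, adjusted p = 0.126), and Kdm4b, a histone demethylase, of −0.82 (SE 0.242, adjusted p = 0.114). Without Nedd9-null replicate 1 these 3 (−1.40, −1.39 and −0.99) and Zfp395 (−0.68) fell (11.4% of the 35, against 8.36% of all genes), and none of the 35 rose (against 10.3%). The 8 regulators of glycolysis had a median of −0.41, or −0.44 over 7 tumours. Prkaa2, a catalytic subunit of AMP kinase, had a difference of −1.22 (SE 0.393, adjusted p = 0.128). Mlxipl, the glucose-responsive factor ChREBP, had one of −2.61 (SE 1.02, adjusted p = 0.177), and Trp53 one of −0.52 (SE 0.183, adjusted p = 0.149), or −0.48 over 7 tumours. Prkaa2 (−1.60) and Mlxipl (−3.61) passed as lower without Nedd9-null replicate 1 (25.0% of the 8, against 8.36% of all genes), and none passed as higher (against 10.3%).

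Levels of cell type markers varied between the tumours, and no marker passed the adjusted threshold with all 8 tumours. The smallest adjusted p among the markers in the limma fit was 0.0599. Over all genes, 52.2% of the differences were positive. In bulk tumour RNA, fewer cells of a type and less RNA per cell cannot be told apart. Markers of ovarian stroma and follicle cells had 10 of 11 negative differences, with a median of −3.27, or −4.60 over 7 tumours. Their summed level on the log2 scale ran from 7.06 to 7.81 in the Nedd9-WT tumours, was 7.32 in Nedd9-null replicate 1, and ran from 4.24 to 4.47 in the other Nedd9-null tumours. Amhr2, whose promoter drives the transgene, is one of them (difference −3.95, SE 1.19, adjusted p = 0.116, and −5.23, adjusted p = 0.000748, without Nedd9-null replicate 1). Markers of Muellerian and ciliated epithelium were all positive (10 of 10, median 1.00, or 1.96 over 7 tumours), with a summed level of 5.51 to 6.61 in the Nedd9-WT tumours, 6.17 in Nedd9-null replicate 1 and 7.73 to 8.19 in the others. Nedd9-null replicates 2 to 4, which lay outside the Nedd9-WT range for Hk2, Aldoc, Ldhb, Car9, Slc2a3 and Pfkfb4, thus had low ovarian and high epithelial marker levels. Nedd9-null replicate 1 had summed ovarian and epithelial marker levels inside the Nedd9-WT ranges. Its summed endothelial (2.99), red blood cell (5.45), leukocyte (5.97), skeletal muscle (−0.034) and neuronal (5.51) levels lay outside the Nedd9-WT ranges of those lists. For Hk2 this tumour lay below the Nedd9-WT range. For Aldoc, Car9 and Slc2a3 it also lay below that range, while the other Nedd9-null tumours lay above it. The part of cell composition in these differences was not tested.

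Endothelial markers had 11 of 12 negative differences (median −0.76, or −0.72 over 7 tumours), with summed levels of 2.99 to 3.43 in the Nedd9-null and 3.62 to 4.47 in the Nedd9-WT tumours. Red blood cell markers had 7 of 7 negative differences (median −2.10, or −1.53 over 7 tumours), with summed levels of 5.45 to 8.31 in the Nedd9-null and 7.30 to 9.48 in the Nedd9-WT tumours, over the 7 of 9 listed genes bright enough to test. Nedd9-WT replicate 1 and Nedd9-null replicate 1, lowest for many of the 31 genes, had the lowest red cell scores of their genotypes (−2.33 and −2.81). Nedd9-null replicate 3 also had a low red cell score (−2.39) but was lowest in only 4 of the 31. The highest red cell score, 1.74, was that of Nedd9-WT replicate 4, which was highest in 6 of the 31. Nedd9-WT replicate 3, highest in 17, scored 0.46. The part of blood content in these levels was not tested. Leukocyte markers had a median of −0.014 (5 of 13 positive), skeletal muscle markers of 0.24 (4 of 7 positive) and neuronal markers of 0.18 (6 of 11 positive). Over 7 tumours these medians were 0.19, 0.41 and 0.020.

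**Figure D4:**
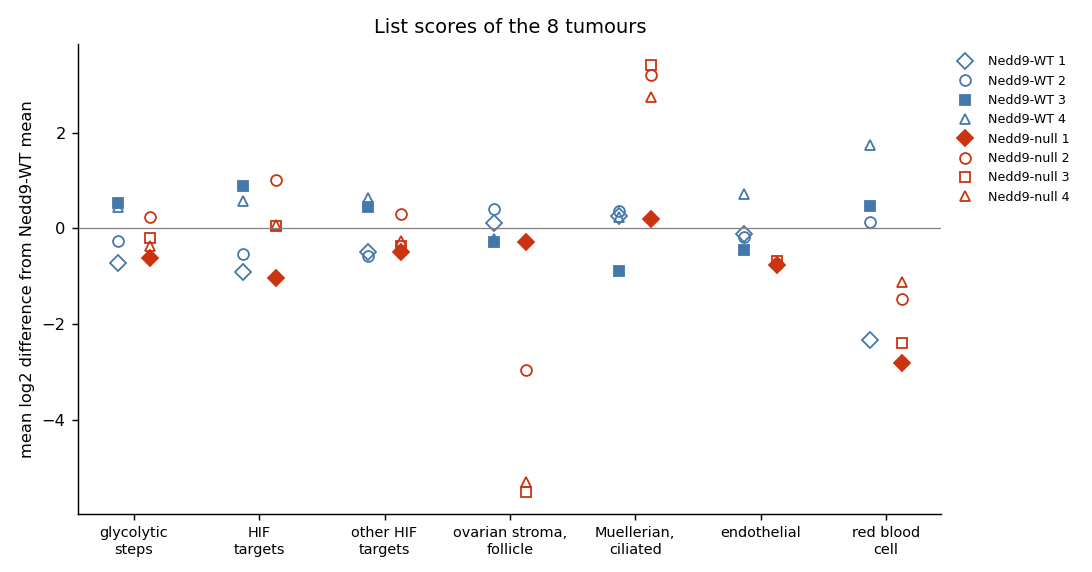
Score of each tumour for 7 gene lists, as the mean log2 difference of the list's genes from their Nedd9-WT mean (vertical axis), genotypes in blue (Nedd9-WT) and red (Nedd9-null) and symbols for the replicate. The scores of the glycolytic and HIF lists overlap between genotypes, while for the ovarian and the Muellerian lists Nedd9-null replicates 2 to 4 lie apart from the Nedd9-WT tumours and Nedd9-null replicate 1 (filled diamond) lies near them.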

How the data were processed

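Total RNA of 8 ovarian tumours was profiled on 1-colour Agilent arrays, with genotype and replicate number read from each title and each sample being 1 mouse. Scanner files, as deposited, give intensity values made with Agilent Feature Extraction 9.5.3, per the submitters' processing notes. Background subtraction and detrending were done per array, without normalization between arrays, per the file headers. The deposited table of processed values holds log2 values, which follow the log2 median signal (r of 0.999 or higher per array) and share a median of 8.24. Its background step is not given in the sources used here, and it served as an alternative.

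Control and outlier spots were left out, spots of a probe were averaged, and each log2 processed signal was set against the array's 75th percentile (2418 to 3552 in signal). Between 72.9% and 84.6% of 39429 probes were well above background on an array, and the number of arrays limits the precision. Kept were probes well above background on 3 or 4 of the 4 arrays of a genotype, and the brightest probe stood for each gene name in the files, which left 25610 genes. The genotype difference was fitted in R 4.3.3 with limma 3.58.1 (lmFit, eBayes, Benjamini-Hochberg adjustment, threshold 0.05). The code was checked on simulated data with independent noise of equal variance in all tumours, which hold no tumour that stands apart. Files were read with the R package data.table (version 1.17.8).

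The 31 genes and all lists were chosen with earlier results of these data known, so no list was tested as a set. The text names all 31, Nedd9 and, of each other pathway list, genes past the threshold or else up to 3 with the smallest p; genes that passed without Nedd9-null replicate 1, Hif1a, Amhr2 and Epo were named after their values were seen. Some genes that passed in the lists are not reported here. Alternatives covered background correction, scale, source of values, filter, probes, names, replicate block, array weights, the variance model and each replicate left out. With 1 mouse per sample, p-values set the genotype difference against the spread between tumours of the same genotype. Same-numbered tumours did not deviate together (r of −0.05, −0.23, −0.04 and −0.09), so the numbers were not used as pairs. Exon and UTR positions of the probes were not analysed here.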

Additional observations from a re-analysis of the deposited data

Results flagged for a closer look

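Of 92 values tested within a genotype by Dixon's rule for 4 samples, 7 had 1 tumour far from the other 3, and chance gives about 1 in 20. Aldoc was low in Nedd9-null replicate 1, at 1.32 against 5.005 to 5.36 in the others. Ankrd37 was low in the same tumour, at −2.20 against 0.66 to 1.19. Ldhb was high in Nedd9-WT replicate 3, at 6.92 against 5.42 to 5.55. Eno2 was high in Nedd9-WT replicate 4, at −1.50 against −3.51 to −3.32. The list scores (a list's mean log2 level relative to Nedd9-WT tumours) stood out in 3 cases. The pentose phosphate score was 0.54 in Nedd9-WT replicate 3 against −0.19 to −0.17. The Muellerian and ciliated epithelium score was −0.88 in the same tumour against 0.25 to 0.37. By the summed level used above, that tumour was instead the highest of the Nedd9-WT tumours, at 6.61. The leukocyte score was 0.83 in Nedd9-null replicate 2 against −0.30 to −0.15. The summed leukocyte level was instead highest in Nedd9-null replicate 1, at 5.97 against 5.30 in replicate 2.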

How the results depend on the processing

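The lack of any call among the 31 genes held under all alternatives but array weights and the fit without Nedd9-null replicate 1, each of which called the same 6 genes. The array weight of that tumour was 0.227, against 1.68 to 2.30 for the other Nedd9-null arrays. Nedd9-WT arrays had weights from 0.509 (replicate 3) to 1.10 (replicate 2), so the weighted fit also discounts Nedd9-WT replicate 3. Both fits discount Nedd9-null replicate 1 and are not independent. Leaving out single tumours gave 0 to 6 calls. The count over all genes, 17, became 4 with the array median as scale, 4 with quantile normalization, 7 with probes above background on all 8 arrays, 6003 with array weights, and 0 to 4786 without single tumours. It was 0 with limma and the replicate block (4749 at an unadjusted p under 0.05) and 0 with a plain equal-variance test (5831). Nedd9 stayed at −4.51 in the last 2 fits (adjusted p of 0.217 with the replicate block and 0.104) and ran from −4.92 to −4.25 without single tumours, where its call was lost in 6 of 8 fits: without Nedd9-null replicates 2, 3 and 4 (adjusted p of 0.124, 0.117 and 0.121) and Nedd9-WT replicates 2, 3 and 4 (0.121, 0.119 and 0.0878). The array median moved the median of all genes to −0.16 and the share of higher genes from 52.2% to 37.6%. Under the alternatives that kept all 8 tumours, signs turned for 9 genes, none of which passed in any fit. Gpi1 turned with normexp (0.039), the deposited table (0.014) and array weights (0.39), and Ldha with normexp (0.012) and array weights (0.34). Tpi1 (−0.10) and Pgk1 (−0.078) turned with the array median, and Pfkfb3 with the deposited table (0.037) and array weights (0.33). Pfkp (0.22), Eno1 (0.12), Pdk1 (0.030) and Adm (0.35) turned with array weights. The sign of Slc2a1 turned only in fits without single tumours. Without single tumours the differences ran from −0.30 to 0.28 for Gpi1, −0.43 to 0.35 for Pfkp, −0.39 to 0.046 for Eno1, −0.35 to 0.21 for Ldha, −1.19 to 0.16 for Adm, −0.59 to 0.28 for Pfkfb3, −0.087 to 0.72 for Slc2a1, −0.23 to 0.43 for Tpi1, −0.30 to 0.40 for Pgk1 and −0.68 to 0.080 for Pdk1. The median over the glycolytic genes ran from −0.37 to 0.11 and that over the HIF targets from −0.59 to 0.16 in the same fits. The cause of these changes was not tested.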
